A study of Danio rerio with 186 samples.

Results

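The gene dkk3b (ENSDARG00000070683) encodes a secreted protein of the Dickkopf family. It was 1 of 31953 genes counted, beside a row for EGFP, in single cells of the zebrafish pancreas. It was chosen by values measured in these cells, namely its level in the sorted gates and its relation over cells to sst1.1, HHEX and ins. Those values are therefore given as a description, and no test was run on them.

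Cells came from fish at 30 days post fertilization that carried both Tg(ins:BB1.0L), a transgene under the insulin promoter, and TgBAC(sst1.1:memEGFP), in which sst1.1 regulatory sequence drives membrane-bound EGFP. Every group carried both transgenes. After enzymatic dissociation, the cells were sorted by fluorescence into single wells and read with Smart-Seq2, which covers whole transcripts and has no molecular identifiers. There were 3 gates: 60 sst1.1+ ins+ cells on plate 3, 66 sst1.1+ cells on plate 4, and 60 ins+ cells, of which 27 lay on plate 4 and 33 on plate 3, where the plate is read from a number in the sample titles. The labels name no animals, and each gate on a plate counts as 1 sample. The spread given below is between cells of a pool and not between fish.

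Dickkopf proteins are best known as secreted antagonists of Wnt signalling. Dkk1 binds the Wnt co-receptors Lrp5 and Lrp6 together with Kremen proteins, whereas Dkk3 is the divergent member of the family and has not been given one agreed receptor. In the islet, delta cells make somatostatin and beta cells make insulin. HHEX is a homeobox transcription factor that maintains delta cells in the mouse.

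Of the 186 cells, 174 had at least 500 detected genes and 50000 gene reads and were kept: 57 sst1.1+ ins+ cells, 61 sst1.1+ cells, and 24 and 32 ins+ cells of plates 4 and 3. The median depth was 484520 gene reads in sst1.1+ ins+ cells, 556705 for sst1.1+ cells, 536886 in ins+ cells of plate 4 and 422832 in those of plate 3. The median number of detected genes was 4999 in sst1.1+ ins+ cells, 3616 for sst1.1+ cells, 2746.5 in ins+ cells of plate 4 and 2564 in those of plate 3. Intervals on levels and ratios below take reads as independent counts. Reads are not independent molecules here, so these intervals understate even the counting error. Intervals on shares take the cells of a pool as independent draws. None of the intervals covers the spread between fish.

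Some cells had hormone reads that went against their gate. The median cell of each gate held the hormones its name gives: sst1.1 was at 128368 CPM (a cell's reads of a gene scaled to 1000000 gene reads) in sst1.1+ ins+ cells and 255477 CPM for sst1.1+ cells, against 38.6 and 23.2 CPM in ins+ cells of plates 4 and 3. The median of ins was 202351 CPM in sst1.1+ ins+ cells, 135 CPM for sst1.1+ cells, and 375017 and 406364 CPM in ins+ cells of plates 4 and 3. A threshold of 5% of a cell's gene reads in sst1.1 or in ins, set after the data were seen, was used to count them. Of 57 sst1.1+ ins+ cells, 10 fell below it for sst1.1 and 2 for ins, and 1 of these 2 had only 174 CPM of ins. Of 61 sst1.1+ cells, 2 fell below it for sst1.1, and 1 of them held 711 detected genes. Among ins+ cells, 1 of 24 on plate 4 and 0 of 32 on plate 3 were above it for sst1.1. The results below are given with these cells and, where they carry weight, without them.

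dkk3b was high in cells of both gates that name sst1.1 and low or nearly undetected in ins+ cells. In sst1.1+ ins+ cells it ranged from 28.1 to 7911 CPM around a median of 2777 CPM. In sst1.1+ cells it ranged from 9.0 to 13299 CPM around a median of 5524 CPM. In ins+ cells of plate 4 it ranged from 0 to 2296 CPM with a median of 97.9 CPM, and in those of plate 3 from 0 to 1579 CPM with a median of 69.3 CPM. The cells of either sst1.1 gate and of the ins+ gate overlapped in range, but no ins+ cell of plate 4 reached the median of sst1.1+ cells and no ins+ cell of plate 3 reached the median of sst1.1+ ins+ cells.

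**Figure D1:**
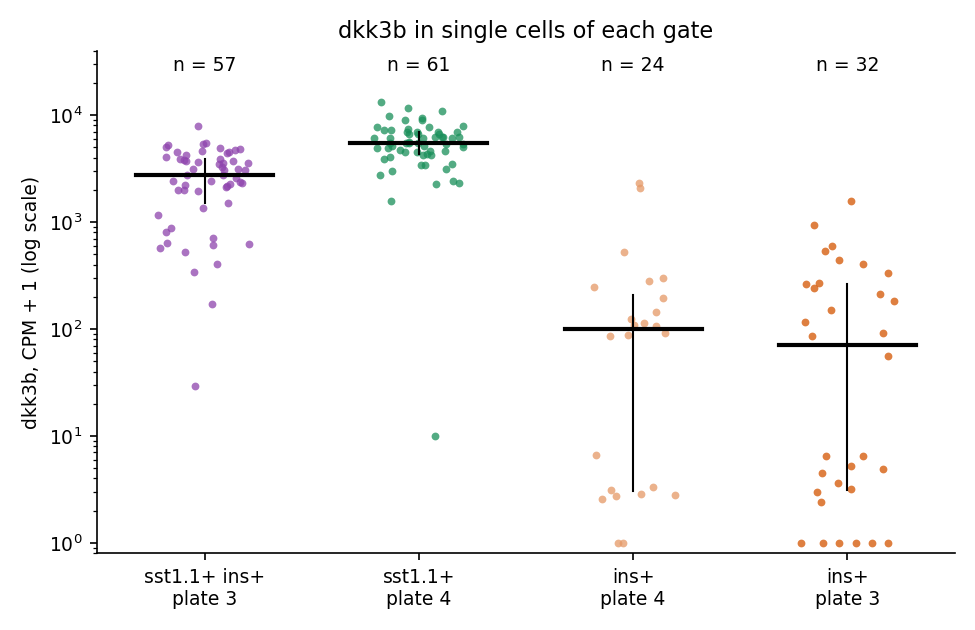
Level of dkk3b in each kept cell (CPM + 1, log scale) by gate and plate. Thick bars are medians and thin lines span the quartiles; the sst1.1+ ins+ and sst1.1+ cells cluster around 2777 and 5524 CPM, while ins+ cells fall into a low band at 0 to 5.70 CPM and an upper band from 54.4 CPM.

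Relative to its mean, dkk3b varied most between ins+ cells. The middle range of cells, from the first to the last quartile bound, was 1506 to 3926 CPM in sst1.1+ ins+ cells and 4353 to 6917 CPM in sst1.1+ cells. In ins+ cells it was 2.04 to 206 CPM on plate 4 and 2.12 to 262 CPM on plate 3. The coefficient of variation over cells was 59.5% for sst1.1+ ins+ cells, 41.9% for sst1.1+ cells, 213% for ins+ cells of plate 4 and 165% for those of plate 3.

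Read counts showed where each gate stood against detection. At least 5 dkk3b reads were present in 57 of 57 sst1.1+ ins+ cells (100%, Clopper-Pearson 95% interval 93.7 to 100) and in 60 of 61 sst1.1+ cells (98.4%, 91.2 to 99.96). Among ins+ cells this held for 15 of 24 on plate 4 (62.5%, 40.6 to 81.2) and 17 of 32 on plate 3 (53.1%, 34.7 to 70.9). After each cell was thinned to 100000 gene reads, 98.2% of sst1.1+ ins+ cells, 98.4% of sst1.1+ cells, 62.5% of ins+ cells of plate 4 and 53.1% of those of plate 3 still had 5 reads, with 1 sst1.1+ ins+ cell too shallow to thin. A level of 1000 CPM or more was reached by 45 of 57 sst1.1+ ins+ cells, 60 of 61 sst1.1+ cells, 2 of 24 ins+ cells of plate 4 and 1 of 32 of plate 3.

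The ins+ cells fell into a lower and an upper band with no cell between them. On plate 4, 9 of 24 cells had at most 3 dkk3b reads, 2 of them at 0, and the other 15 had at least 40 reads. On plate 3, 15 of 32 had at most 3 reads, 6 of them at 0, and the other 17 had at least 11. The lowest cell of the upper band stood at 84.6 CPM on plate 4 and at 54.4 CPM on plate 3, against highest values of 5.70 CPM and 5.46 CPM in the lower bands. Such a gap was not particular to dkk3b. In the same ins+ cells of plate 3, pyyb had no value between 5.08 and 21.3 CPM and pbx3b none between 7.94 and 45.7 CPM. Reads here do not count molecules, so the bands are not read as different kinds of ins+ cell. Reads of the other gate's hormone were also present at low level: at least 5 ins reads were found in 61 of 61 sst1.1+ cells (median 135 CPM), and at least 5 sst1.1 reads in 21 of 24 and 21 of 32 ins+ cells of plates 4 and 3 (medians 38.6 and 23.2 CPM). The source of these reads, and its part in the few dkk3b reads of ins+ cells, was not tested. Wells of all 3 gates that the filter left out also held dkk3b reads. The ins+ well in row A and column 11 of plate 4 had 18 of them. It held only 6214 gene reads and 418641 spike-in reads. In row G and column 3 of plate 3 an ins+ well had 3 of 1745 gene reads. More than 5 dkk3b reads thus also occurred in a well with few gene reads. Per 1000 spike-in reads these wells had 0.043 and 0.029 dkk3b reads. The kept ins+ cells of plate 3 had at most 0.30 in the lower band and at least 1.51 in the upper band. The part of such reads in the counts of kept cells was not tested.

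Within the ins+ gate a few cells held a large part of the dkk3b reads. The top 2 cells gave 66.3% of them on plate 4 and 39.8% on plate 3. On plate 4 these cells lay in row A. The first, in column 1, had 2296 CPM of dkk3b and was the ins+ cell rich in sst1.1, at 194330 CPM, with ins at 182040 CPM. The second, in column 5, had 2080.3 CPM of dkk3b with only 332 CPM of sst1.1, and its reads held 110896 CPM of gcga, a glucagon gene. On plate 3 the top cells were in column 7 of rows H and G, with 1579 and 939.9 CPM of dkk3b. The cell in row H held 60025 CPM of gcga and 952 CPM of sst1.1, while that in row G held 29339 CPM of sst1.1. In each of these 4 cells ins was at or above 182040 CPM, and HHEX was at 0 in all but the first.

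Taking each pool as 1 sample, its summed reads gave 2835 CPM in sst1.1+ ins+ cells (exact Poisson interval 2815 to 2855), 5842 CPM in sst1.1+ cells (5817 to 5868), 297 CPM in ins+ cells of plate 4 (288 to 307) and 184 CPM in ins+ cells of plate 3 (177 to 191). Over all pairs of 1 cell of each gate, the sst1.1+ cell was higher than the ins+ cell in 98.8% of pairs on plate 4, and 58 of 61 sst1.1+ cells were above the highest ins+ cell. On plate 3 the sst1.1+ ins+ cell was higher than the ins+ cell in 96.6% of pairs, and 42 of 57 were above the highest ins+ cell. The size of the ratio depended on how cells were summarised. For sst1.1+ over ins+ on plate 4 it was 19.7 from summed reads, 56.4 from the cell medians and 53.1 without the top 2 ins+ cells. For sst1.1+ ins+ over ins+ on plate 3 it was 15.4 from summed reads and 40.1 from the cell medians. Leaving out the cells whose hormones went against the gate gave 29.02 for sst1.1+ over ins+ on plate 4 and 17.1 for sst1.1+ ins+ over ins+ on plate 3.

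The log2 ratio of CPM + 1 placed dkk3b at rank 37 of 6825 genes with at least 10 CPM for sst1.1+ ins+ over ins+, and at rank 136 of 7548 for sst1.1+ over ins+. In these comparisons 12.8% and 22.3% of genes were over 2-fold higher. dkk3b was chosen on these same ratios, so nothing is read from its place.

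Gates filled different well rows except for 1 row on each plate. In row F of plate 3, the 3 sst1.1+ ins+ cells held 3495 to 7911 CPM of dkk3b and the 9 ins+ cells 0 to 442 CPM. In row C of plate 4, the 8 sst1.1+ cells held at least 2736 CPM, with a median of 5247 CPM, and the 3 ins+ cells 1.81 to 192 CPM. The ranges did not overlap in either shared row. The 3 sst1.1+ ins+ cells of row F include both cells below 5% of reads in ins. Over the other rows the median of sst1.1+ ins+ cells ran from 2268 to 3682 CPM and that of sst1.1+ cells from 5006 to 6244 CPM.

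**Figure D2:**
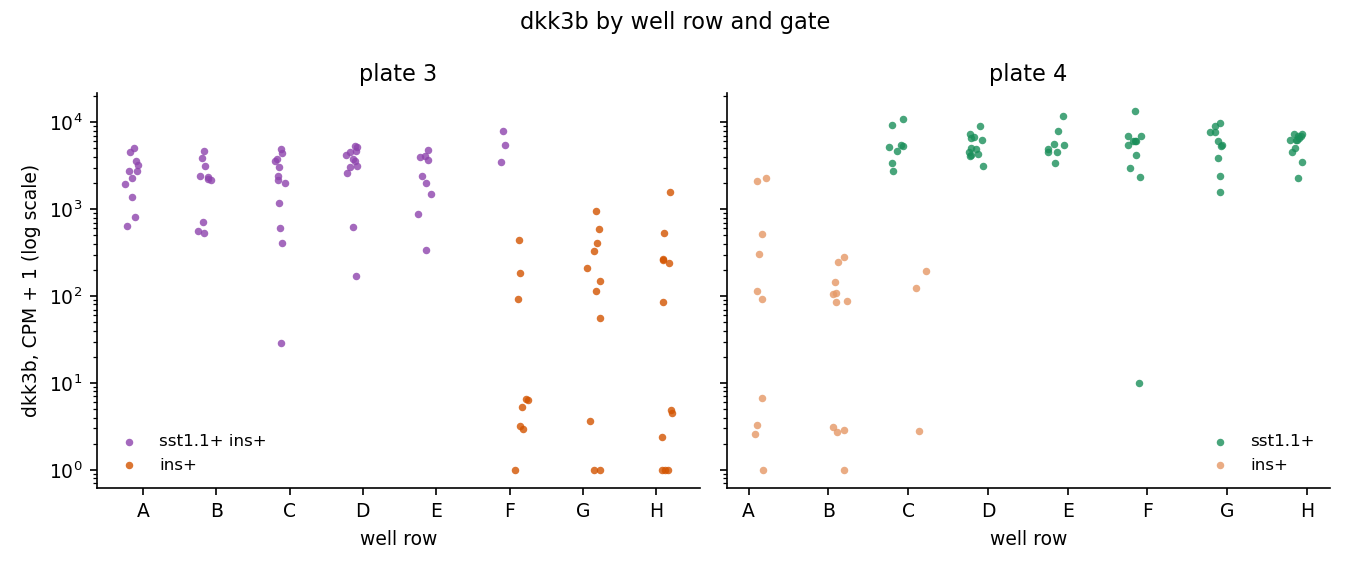
Level of dkk3b in each kept cell (CPM + 1, log scale) by well row, with plate 3 at left and plate 4 at right and the gates in separate colours. In the rows that hold both gates, F at left and C at right, the ranges do not overlap.

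Cells of the sst1.1+ ins+ gate held 0.485 times the dkk3b level of sst1.1+ cells (95% counting interval 0.481 to 0.489). Only 1 of 57 sst1.1+ ins+ cells was above the median of sst1.1+ cells, and the sst1.1+ ins+ cell was the higher one in 14.7% of cell pairs. These gates share no plate, so gate and plate cannot be told apart. Relative to spike-in RNA the ratio was 0.905, with medians of 215 and 249 dkk3b reads per 1000 spike-in reads in sst1.1+ ins+ and sst1.1+ cells. The median number of gene reads per spike-in read was 71.1 in sst1.1+ ins+ cells, 41.8 for sst1.1+ cells, 29.1 in ins+ cells of plate 4 and 28.3 in those of plate 3. For each 1000 sst1.1 reads the median cell held 19.5 dkk3b reads in the sst1.1+ ins+ gate (quartiles 15.9 and 30.2) and 21.6 in the sst1.1+ gate (quartiles 16.4 and 28.4), so that these ranges largely coincided.

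The ins+ gate was the one sorted on both plates. Summed reads gave 1.62 times as much dkk3b on plate 4 as on plate 3, yet a cell of plate 4 was higher than one of plate 3 in 51.4% of pairs. Without the top 2 cells of each pool the ratio was 0.939, and without the sst1.1-rich cell of plate 4 it was 1.11.

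Over the 57 sst1.1+ ins+ cells dkk3b varied with the balance of sst1.1 and ins reads in the well. Spearman's rho was 0.73 with sst1.1 and -0.75 with ins, which were the highest and the lowest among 2680 genes with at least 5 reads in 50% or more of these cells. It was 0.81 with the ratio of sst1.1 to ins reads and 0.47 with HHEX, rank 12 of 2680. dkk3b was chosen by its relations to sst1.1, HHEX and ins, so nothing is read from these ranks. CPM shares 1 total among the genes of a cell, and sst1.1 and ins take a large part of it, so these values are tied by construction to some degree. With hormone reads taken out of the total, rho was 0.76 with sst1.1 and -0.70 with ins. Per spike-in read it was 0.82 with sst1.1, 0.65 with HHEX and 0.0038 with ins. Both values of a pair share the spike-in reads as their denominator there, which can raise rho. The inverse relation to ins was thus seen for shares of reads. Whether it holds relative to spike-in RNA cannot be told from these values. Whether wells with both sst1.1 and ins reads held more than 1 cell, and its part in these correlations, was not tested.

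The 10 cells under 5% of reads in sst1.1 held 28.1 to 2326 CPM of dkk3b, and the other 47 held 566 to 7911 CPM. Without the 12 cells whose hormones went against the gate, which are these 10 and the 2 under 5% of reads in ins, one of them the cell with the most dkk3b, rho over the remaining 45 was 0.49 with sst1.1, 0.17 with HHEX and -0.72 with ins. In the 12 cells with least dkk3b, at 28.1 to 879.8 CPM, sst1.1 was at 939.9 to 65297 CPM, ins at 160026 to 415809 CPM, and HHEX at 0 in 9. The cell with the most, at 7911 CPM in row F and column 1, had 383405 CPM of sst1.1, 136 CPM of HHEX and almost no ins.

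Over the 61 sst1.1+ cells the same relations were near zero. Spearman's rho was 0.02 with sst1.1, -0.05 with HHEX and 0.04 with ins. Pearson's r on log2(CPM + 1) was 0.60 with sst1.1, and 0.14 without the cell with 711 detected genes, which held 9.0 CPM of dkk3b and 1488 CPM of sst1.1. Per spike-in read rho with sst1.1 was 0.63, where both values share the spike-in reads as their denominator. The lowest rho among the 1796 genes with at least 5 reads in 50% or more of the cells of both gates was -0.40, with sst2, another somatostatin gene. The difference in rho between the gates was not tested. The share of cells with at least 5% of reads in sst1.1 also differed, with 47 of 57 sst1.1+ ins+ cells and 59 of 61 sst1.1+ cells.

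**Figure D3:**
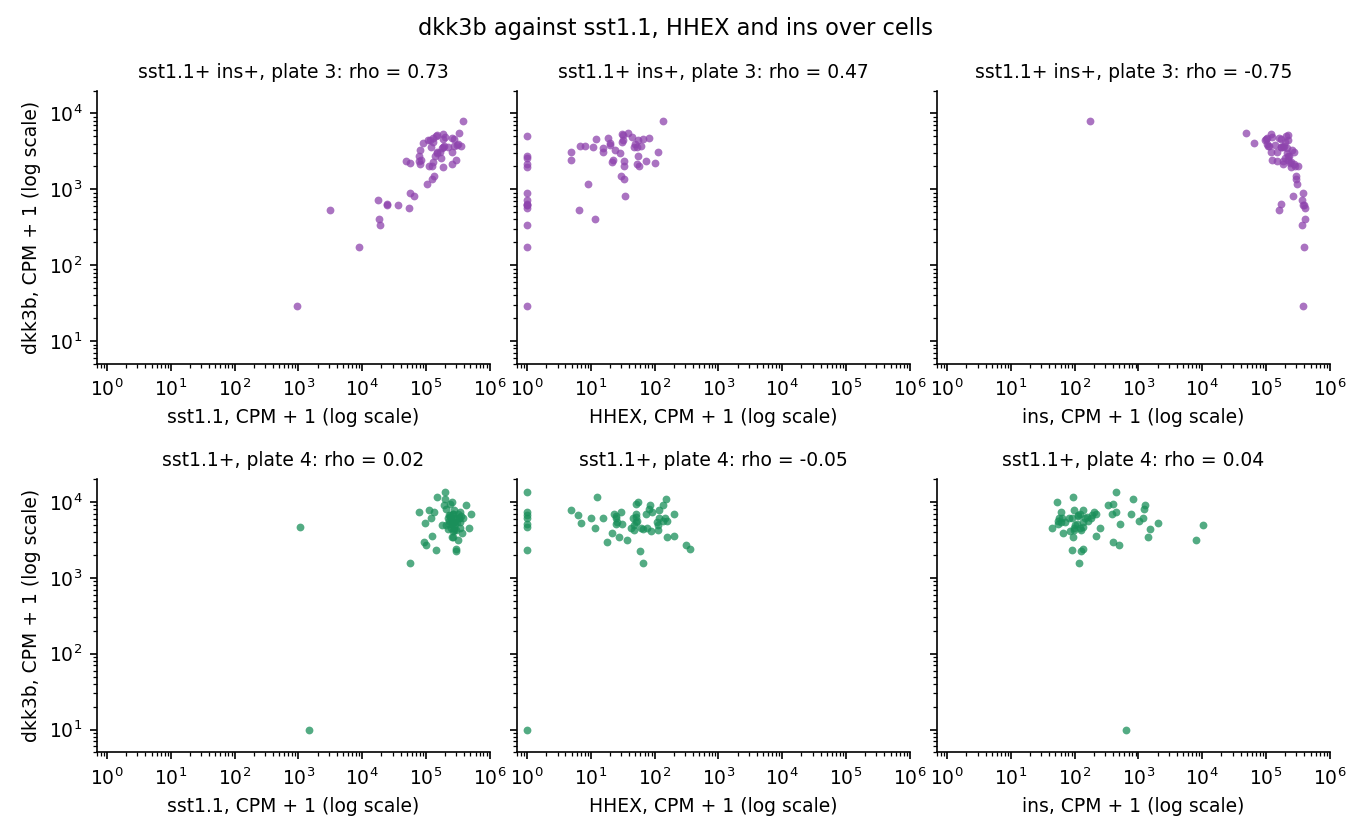
Level of dkk3b against sst1.1, HHEX and ins over cells (CPM + 1, log scales), with sst1.1+ ins+ cells in the upper row, sst1.1+ cells in the lower row and Spearman's rho above each panel. In sst1.1+ ins+ cells dkk3b runs upward with sst1.1 (0.73) and downward with ins (-0.75), and in sst1.1+ cells it shows no such slope with either (0.02 and 0.04).

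In ins+ cells rho with ins was -0.34 on plate 4 (n = 24) and -0.39 on plate 3 (n = 32), and with sst1.1 it was 0.08 and 0.34 on those plates. EGFP, which the sst1.1 transgene carries, gave 0.18 and 0.58. On plate 3 the ins+ cells with at least 5 dkk3b reads had medians of 357 CPM of EGFP and 75.3 CPM of sst1.1. The other ins+ cells of that plate had 180 CPM and 14.9 CPM. On plate 4 both medians went the other way. There the ins+ cells with at least 5 dkk3b reads had 171 CPM of EGFP and 36.9 CPM of sst1.1. The other ins+ cells of plate 4 had 265 CPM and 73.05 CPM. The source of the EGFP reads in ins+ cells was not tested. HHEX had 5 reads in only 1 of 24 and 2 of 32 ins+ cells, each of which also had dkk3b, while dkk3b was present without HHEX in 14 and 15. Further, 20 of 57 sst1.1+ ins+ cells and 11 of 61 sst1.1+ cells had dkk3b and fewer than 5 HHEX reads, and no cell of any pool had 5 HHEX reads with fewer than 5 of dkk3b. Nearly all cells of the sst1.1 gates had 5 dkk3b reads and few ins+ cells had 5 HHEX reads. This outcome was therefore nearly fixed, and nothing is read from it. HHEX was a low gene, with medians of 20.2 CPM in sst1.1+ ins+ cells and 49.4 CPM for sst1.1+ cells, so a count under 5 does not show its absence.

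Cells rich in glucagon reads also held dkk3b. At least 5% of reads in gcga and gcgb, the glucagon genes, was found in 4 sst1.1+ ins+ cells with 3244 to 4422 CPM of dkk3b, against 28.1 to 7911 CPM in the other 53. It was found in 9 sst1.1+ cells with 4687 to 7719.8 CPM, against 9.0 to 13299 CPM in the other 52. In the ins+ gate it was found in 1 cell of each plate, at 2080.3 CPM on plate 4 and 1579 CPM on plate 3, and these were the second highest and the highest of their pools. The sst1.1+ cell in row C and column 6 had only 1057 CPM of sst1.1 and no HHEX, with gcga at 149563 CPM and gcgb at 164575 CPM, and held 4687 CPM of dkk3b. Over the cells of a gate rho of dkk3b with gcga was 0.00298 in sst1.1+ ins+ cells, 0.17 for sst1.1+ cells, -0.06 in ins+ cells of plate 4 and -0.03 in those of plate 3. With gcgb it was 0.26 in sst1.1+ ins+ cells, 0.19 for sst1.1+ cells, 0.43 in ins+ cells of plate 4 and -0.13 in those of plate 3. Whether wells with 2 hormones held more than 1 cell was not tested.

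**Figure D4:**
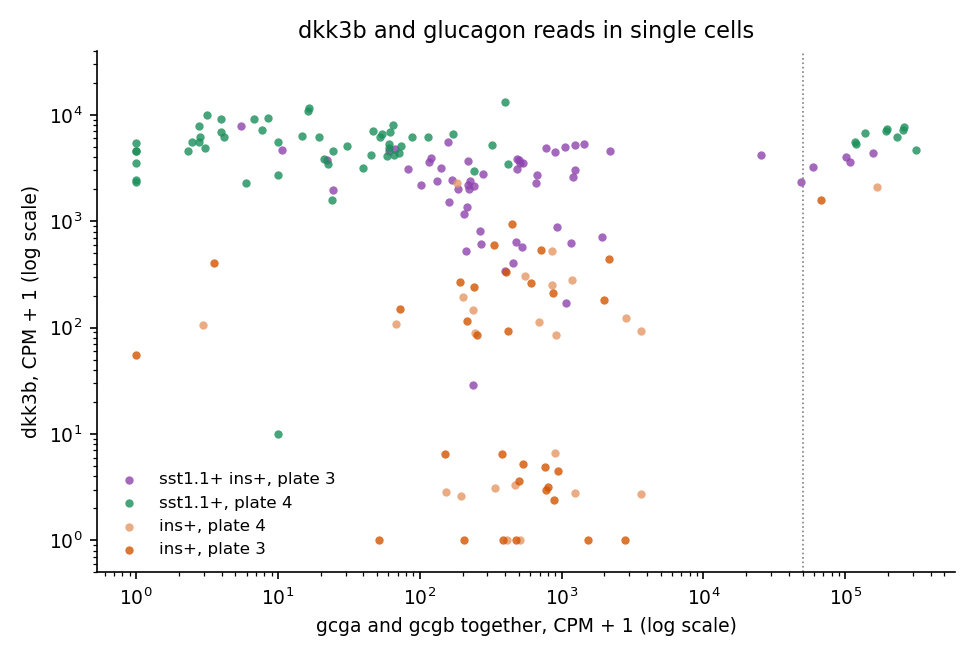
Level of dkk3b against the sum of gcga and gcgb in each kept cell (CPM + 1, log scales), coloured by gate and plate, with a dotted line at 5% of gene reads. All cells right of the line have at least 1579 CPM of dkk3b, including 1 ins+ cell of each plate.

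Cells with at least 5% of reads in sst2 were few. There were 2 sst1.1+ ins+ cells with 529 and 3090 CPM of dkk3b, 3 sst1.1+ cells with 1585, 2989 and 4902 CPM, and 2 ins+ cells of plate 3 with 242 and 331 CPM. The sst1.1+ cell at 1585 CPM was the second lowest of its gate, and all 3 were below the gate median of 5524 CPM.

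Among other genes, pyyb had the pattern most like dkk3b. It encodes a peptide of the neuropeptide Y family. Likeness was measured by Spearman's rho over cells, a description with points that share depth and, over all cells, the gate. The rule took the 5 genes with the largest smaller rho of both sst1.1 gates, among 1796 genes. Only genes with a symbol were named. For pyyb rho was 0.72 over 57 sst1.1+ ins+ cells and 0.51 over 61 sst1.1+ cells. The value in sst1.1+ cells was the highest of 1882 genes and was 0.49 without the cell with 711 detected genes. The other genes named by this rule were ptn, a secreted heparin-binding growth factor (0.49 and 0.43), NBL1, a secreted BMP antagonist (0.37 and 0.39), farp1, a FERM-domain exchange factor (0.49 and 0.36), and scg2b, a secretogranin of dense-core granules (0.47 and 0.35), each with the sst1.1+ ins+ value first. The median gene had a rho of 0.06 in both gates. The most opposite were ghrl, the ghrelin gene (-0.28 and -0.31), taf12, a subunit of general transcription factor TFIID (-0.28 and -0.25), and ptmaa, a prothymosin alpha gene (-0.28 and -0.24). ghrl was highest in wells with many spike-in and few gene reads. The ins+ well in row A and column 11 of plate 4, left out by the filter, held 106855 CPM of it. The sst1.1+ cell with 711 detected genes held 435 CPM, against a gate median of 54.7 CPM. Its rho with dkk3b is therefore not read as expression of ghrelin in these cells, and the source of its reads was not tested.

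Over all 174 cells together the differences between gates enter as well. The insulin, somatostatin, glucagon and ghrelin genes and EGFP were left out of this ranking, and only genes with a symbol were named. The closest 5 of the rest were pyyb (0.87), itga6b, an integrin alpha subunit (0.80), srd5a2b, a steroid 5-alpha-reductase (0.75), cpne4a, a copine (0.73), and pbxip1b, a PBX-interacting protein (0.72). The median was 0.10 over 2758 genes. In ins+ cells rho of pyyb with dkk3b was 0.09 on plate 4 and 0.41 on plate 3. At least 5 reads of both were found in 5 of 24 cells of plate 4 and 7 of 32 of plate 3, dkk3b alone in 10 and 10, and pyyb alone in 3 and 3. For itga6b the pool levels were 146 CPM in sst1.1+ ins+ cells, 353 CPM for sst1.1+ cells, 12.2 CPM in ins+ cells of plate 4 and 4.14 CPM in those of plate 3. Within gates its rho with dkk3b was 0.62 in sst1.1+ ins+ cells and 0.20 for sst1.1+ cells.

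Of the rest of the Dickkopf family, dkk3a, the paralogue of dkk3b, did not share its pattern of levels. It had 2.74 CPM in the sst1.1+ ins+ pool, 0.263 CPM in the sst1.1+ pool, 18.2 CPM in the ins+ pool of plate 4 and 0.591 CPM in that of plate 3. At least 5 dkk3a reads were found in 5 of 57 sst1.1+ ins+ cells, 1 of 61 sst1.1+ cells and 1 ins+ cell of each plate, so the ins+ level of plate 4 rests on 1 cell. The log2 ratio of CPM + 1 was 4.29 for dkk3b and -3.93 for dkk3a in sst1.1+ over ins+ cells of plate 4, where 17.1% of genes were over 2-fold lower. On plate 3 dkk3a was under 10 CPM in both pools. The genes dkk1a, dkk1b and dkk2 had at most 0.402 CPM in any pool, and dkk4 and dkkl1 were not matched.

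The candidate partners of Dickkopf proteins differed among themselves. Of 7 listed, 6 were matched and 4 had at least 10 CPM in either pool of a plate. For sst1.1+ ins+ over ins+ on plate 3, 2 of 4 were over 2-fold higher and 0 lower, where 12.8% of all genes were higher and 12.6% lower. For sst1.1+ over ins+ on plate 4, 2 of 4 were higher and 1 lower, where 22.3% of all genes were higher and 17.1% lower. On plate 3 itga6b and kremen1, the higher ones, reached 10 CPM only in the sst1.1+ ins+ pool. On plate 4 kremen1, the lower one, reached it only in the ins+ pool. The counts are therefore no support for the list. The highest was itga6b, with log2 ratios of 4.84 on plate 3 and 4.75 on plate 4, and in zebrafish it is reported as a binding partner of the paralogue Dkk3a. ckap4, a membrane protein that binds Dkk1 in human cells, had 0.56 and 1.07, and kremen1, a Dkk1 receptor, had 1.12 and -1.29 on those plates, with 5 reads in 14 of 57 sst1.1+ ins+ cells, 8 of 61 sst1.1+ cells, 4 of 24 ins+ cells of plate 4 and 2 of 32 of plate 3. itga6a, the paralogue of itga6b, had 0.14 and 0.30.

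Wnt pathway genes lay on both sides of no difference. Over all 106 listed pathway genes without dkk3b, 94 were matched. On plate 3, 18 of them were measured in sst1.1+ ins+ against ins+ cells, of which 6 were over 2-fold higher and 2 lower, with a median log2 ratio of 0.49 against -0.08 over all genes, where 12.8% of genes were higher and 12.6% lower. On plate 4, 25 were measured in sst1.1+ against ins+ cells, of which 7 were higher and 5 lower, with a median of 0.30 against 0.04 over all genes, where 22.3% were higher and 17.1% lower. Some of these genes reached 10 CPM only in the pool where they were higher. On plate 3 these were itga6b, kremen1 and apc among the higher genes and ryk and axin2 among the lower. On plate 4 they were fzd9b and fzd8a among the higher and dkk3a, kremen1, dvl3a, pygo2 and tnfrsf19 among the lower. These counts, and those of the single lists below, are therefore no support for the lists. Among the ligands only wnt9a was measured on either plate, and it was within 2-fold on both.

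Receptors differed between the comparisons on plates 3 and 4, in which the sst1.1 gate changes along with the plate. Of 4 measured on plate 4, 3 were over 2-fold higher in sst1.1+ cells and 0 lower, where 22.3% of all genes were higher and 17.1% lower. They were lgr4, a receptor for R-spondins (73.6 CPM, against 16.7 CPM in ins+ cells), and the Frizzled genes fzd9b (16.6 CPM, listed at 0 in ins+ cells) and fzd8a (12.02 CPM, likewise at 0). At least 5 reads of fzd9b and fzd8a were found in 9 and 6 of 61 sst1.1+ cells, so these levels rest on few cells. Both Frizzled genes reached 10 CPM only in the sst1.1+ pool and were counted only because they were high there, so the count of 3 of 4 is no support for the list. On plate 3, 2 receptors were measured, of which 0 were higher and 1 lower, where 12.8% of all genes were higher and 12.6% lower. The lower one was ryk, a Wnt-binding receptor, with 5.70 CPM in sst1.1+ ins+ cells and 15.08 CPM in ins+ cells. On plate 3 lgr4 was within 2-fold, with 31.3 CPM in sst1.1+ ins+ cells and 22.99 CPM in ins+ cells. Of the transducers, 6 were measured on plate 3, of which 2 were over 2-fold higher (apc, a scaffold of the beta-catenin destruction complex, at a log2 ratio of 1.54, and gsk3ab, a kinase of that complex, at 1.07) and 0 lower. On plate 4, 9 were measured, of which 1 was higher (ctnnb1, at 1.32) and 2 lower (pygo2, a co-activator of beta-catenin, at -2.99, and dvl3a, a Dishevelled gene, at -1.46). At least 5 reads of pygo2 and dvl3a were found in 2 and 2 of 24 ins+ cells of plate 4. They were found in 1 and 9 of 61 sst1.1+ cells, so these 2 ratios rest on few cells. The shares over all genes were 12.8% higher and 12.6% lower on plate 3, and 22.3% higher and 17.1% lower on plate 4. ctnnb1, which encodes beta-catenin, had 301 CPM in sst1.1+ cells and 120 CPM in ins+ cells of plate 4, and 141 CPM in sst1.1+ ins+ cells and 116 CPM in ins+ cells of plate 3.

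The feedback target axin2 was within 2-fold on plate 4, with 15.2 CPM in sst1.1+ cells and 24.6 CPM in ins+ cells, and over 2-fold lower on plate 3, with 7.63 CPM in sst1.1+ ins+ cells and 18.3 CPM in ins+ cells. At least 5 axin2 reads were found in 8 of 57 sst1.1+ ins+ cells, 8 of 61 sst1.1+ cells, 2 of 24 ins+ cells of plate 4 and 3 of 32 of plate 3. Over the whole target list, 1 of 4 measured genes was higher and 1 lower on plate 3, where 12.8% and 12.6% of all genes were. The higher one was myca, at a log2 ratio of 1.76. On plate 4, 0 of 5 were higher and 1 lower, against 22.3% and 17.1% of all genes. The one other secreted Wnt modulator with enough reads was wif1, a Wnt-binding inhibitor. Its level was 271 CPM in sst1.1+ ins+ cells and 131 CPM in ins+ cells of plate 3, and 535 CPM in sst1.1+ cells and 161 CPM in ins+ cells of plate 4, over 2-fold higher on both.

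Between the sst1.1 gates, 21 pathway genes other than dkk3b were measured. In sst1.1+ ins+ relative to sst1.1+ cells 6 were over 2-fold lower and 0 higher, with a median log2 ratio of -0.57 against -0.26 over all 6982 genes, of which 13.3% were lower. Of the lower genes, fzd9b, fzd8a and ryk reached 10 CPM only in the sst1.1+ pool, so the count is no support for the lists. These pools are on different plates, which cannot be told apart from the gates.

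**Figure D5:**
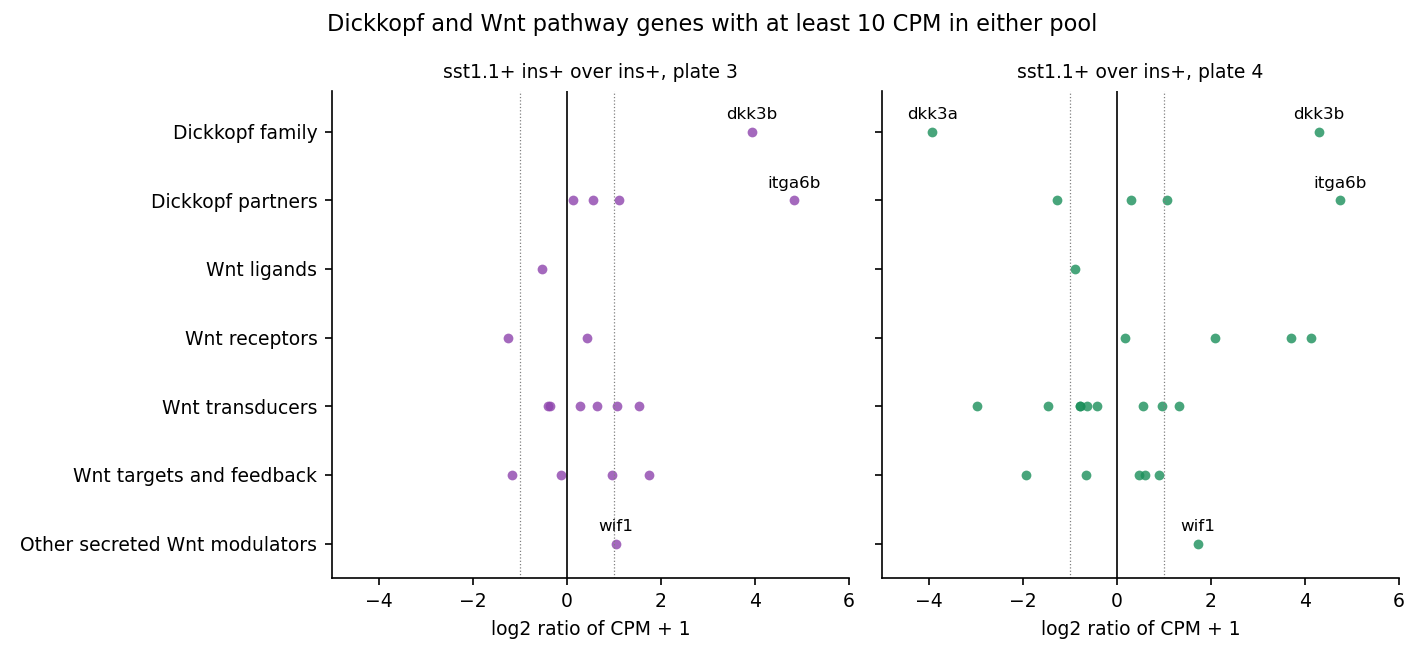
Log2 ratio of CPM + 1 of each Dickkopf or Wnt pathway gene with at least 10 CPM in either pool, by list, for sst1.1+ ins+ over ins+ cells of plate 3 (left) and sst1.1+ over ins+ cells of plate 4 (right), with dotted lines at 2-fold. dkk3b and itga6b stand at 3.94 and 4.84 on plate 3 and at 4.29 and 4.75 on plate 4, and dkk3a at -3.93 on plate 4.

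A list of 6 genes known as enriched in the sst1.1 gates from earlier results of these data (sst1.1, HHEX, elf3, pbx3b, pyyb and cdh10a) was over 2-fold higher in 6 of 6 on both plates, which is no independent evidence. Of all genes, 12.8% were higher on plate 3 and 22.3% on plate 4. On both plates HHEX, elf3 and cdh10a reached 10 CPM only in the sst1.1 gate, so the count is no support for the list. Over cells, pbx3b, a homeobox gene, had a rho with dkk3b of 0.53 in sst1.1+ ins+ cells (rank 5 of 2680) and -0.02 for sst1.1+ cells. elf3, an ETS-family transcription factor, had 0.16 and 0.08 in those gates. elf3 had at least 5 reads in 16 of 57 sst1.1+ ins+ cells and 33 of 61 sst1.1+ cells, so dkk3b was present without it in 41 and 27.

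Many immediate-early and heat-shock genes also differed between the gates. Of 22 measured, 17 were over 2-fold higher in sst1.1+ ins+ than in ins+ cells of plate 3 (median log2 ratio 1.93), and 20 in sst1.1+ than in ins+ cells of plate 4 (median 3.27), set against 12.8% and 22.3% of all genes. Some of the higher genes reached 10 CPM only in the sst1.1 gate. On plate 3 these were fosb, atf3, klf6a and hspb1. On plate 4 they were fosb, jund, ier2b, klf6a and hspb1. The counts are therefore no support for the list. Within gates, rho of dkk3b with the mean level of this list was 0.24 in sst1.1+ ins+ cells, -0.06 in sst1.1+ cells, and 0.40 and 0.22 in ins+ cells of plates 4 and 3. Its part in the dkk3b difference was not tested.

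Markers of non-endocrine cells were read beside dkk3b. The summed level of 12 matched mesenchymal markers had medians of 2.29 CPM in sst1.1+ ins+ cells, 3.27 CPM for sst1.1+ cells, 2.76 CPM in ins+ cells of plate 4 and 2.86 CPM in those of plate 3. All 6 endothelial markers were at 0 reads in the sst1.1+ pool and both ins+ pools, and 4 of 6 in the sst1.1+ ins+ pool, with at most 21.8 CPM in a cell. The 14 acinar markers had medians of at most 2.06 CPM per cell in any pool, and reached 15137.5 CPM in 1 sst1.1+ cell. That cell was the one with 711 detected genes and 9.0 CPM of dkk3b, the lowest of its gate. It had 3.95 gene reads per spike-in read, against a gate median of 41.8. Summed over the 7 ductal markers, medians were 60.9 CPM in sst1.1+ ins+ cells and 179 CPM for sst1.1+ cells. In ins+ cells they were 1.66 CPM on plate 4 and 2.08 CPM on plate 3. The median of the sum was thus higher in both sst1.1 gates, but not every marker was. Only anxa4 and krt18a.1 reached 10 CPM when cells were pooled. On plate 4 both were over 2-fold higher in sst1.1+ cells, where 22.3% of all genes were. On that plate anxa4 reached 10 CPM only in the sst1.1+ pool, at 42.9 against 3.74 CPM in ins+ cells. The count is therefore no support for the list. On plate 3 krt18a.1 stood at 82.3 CPM for sst1.1+ ins+ cells against 34.9 CPM for ins+ cells. There anxa4 went the other way, at 35.6 against 53.4 CPM. The sum had a rho to dkk3b of 0.09 in sst1.1+ ins+ cells and -0.18 for sst1.1+ cells. The 8 immune markers reached 943 CPM in a sst1.1+ ins+ cell, 3362 CPM in a sst1.1+ cell, 696 CPM in an ins+ cell of plate 4 and 203 CPM in one of plate 3. Of 3 matched erythroid markers, 2 were at 0 reads in each sst1.1 pool and 3 in each ins+ pool. The 6 glial and neuronal markers had medians of 48.3 CPM in sst1.1+ ins+ cells, 45.8 CPM for sst1.1+ cells, 12.8 CPM in ins+ cells of plate 4 and 0 in those of plate 3. The part of these markers in the dkk3b levels was not tested.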

How the data were processed

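Raw counts were deposited in 1 table without normalization, each cell in its own column. Per the submitters' processing notes, Trim Galore, HISAT2 and featureCounts were used with GRCz11; for versions, annotation release and strand setting, nothing is given in the sources used here. The 92 spike-in rows were kept out of totals. Of 31953 genes and EGFP, CPM were computed per cell and for the summed kept cells of each pool (Python 3.11.15, numpy 2.4.6, scipy 1.17.1).

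Gates and plates came from sample titles. No animals are named, so no p-values were computed. Levels carry exact Poisson intervals, ratios exact conditional binomial intervals and shares Clopper-Pearson intervals, at 95%. Correlations are Spearman's rho of CPM within a gate. Lists count genes that reach 10 CPM in 1 of the pools compared, with a log2 ratio of CPM + 1 past 2-fold. That ratio understates changes of low genes. Of 212 list symbols, 186 matched directly, 8 by gene ID, 2 ignoring case and 16 not at all. Alternatives included edgeR 4.0.16 TMM scaling (R 4.3.3). No doublet caller was run, and code was tested on simulated data. Named genes are dkk3b, some list members, and the genes most like or most opposite to it by rho. List members were named for their level or for a ratio past 2-fold, and some with more reads, such as csnk1a1, were not named. The gene and the lists were chosen with earlier results of these data known.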

Additional observations from a re-analysis of the deposited data

How the results depend on the processing

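All ratios between a sst1.1 gate and the ins+ gate stayed at 11.9 or more under every alternative run, but their size varied. Relative to 19.7 for sst1.1+ over ins+ on plate 4, the ratio was 17.5 with hormone reads out of the total, 25.6 per spike-in read, 20.3 from mean CPM, 118 from mean log2 levels, 28.1 without the top cell of each pool, 27.85 without cells rich in other hormones, 62.7 in the shared row and 24.5 with ins+ cells of both plates. Of settings chosen after seeing the data, leaving out the top 2 ins+ cells gave 53.1 and leaving out cells against their gate 29.02. In the same order, for sst1.1+ ins+ over ins+ on plate 3 (15.4), the first 8 gave 14.7, 35.6, 13.9, 71.9, 19.55, 21.6, 79.1 and 11.9, and leaving out cells against their gate 17.1.

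The ratio of sst1.1+ ins+ to sst1.1+ cells (0.485) was 0.547 without hormone reads, 0.55 with TMM, 0.905 per spike-in read, 0.481 with 1000 genes and 100000 reads required, 0.492 from mean CPM, 0.427 from mean log2 levels, 0.4805 without top cells, 0.477 without cells rich in other hormones and 0.531 without cells against their gate. For ins+ cells of plate 4 over plate 3 (1.62) it was 1.48 with TMM, 1.54 per spike-in read, 1.39 from mean CPM, 1.43 from mean log2 levels, 1.45 without top cells and 1.11 without the cell against its gate, and it reversed to 0.939 without the top 2 cells of each pool. Counting cells from 1 read gave shares of 100% for sst1.1+ cells and 91.7% and 81.2% for ins+ cells of plates 4 and 3.

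Over sst1.1+ ins+ cells the correlation with sst1.1 was 0.88 by Pearson and 0.49 without cells against their gate. That with HHEX was 0.58 by Pearson, 0.32 after thinning, 0.65 per spike-in read and 0.17 without cells against their gate, and that with ins was -0.45 by Pearson and 0.0038 per spike-in read. In sst1.1+ cells, sst1.1 gave 0.60 by Pearson, 0.19 without hormone reads and 0.63 per spike-in read, HHEX 0.18 by Pearson and 0.14 per spike-in read, and ins -0.090 by Pearson and 0.25 per spike-in read. The correlations per spike-in read and without cells against their gate were chosen after seeing the data. In those per spike-in read both values share the spike-in reads as their denominator. Thinning left the shares of cells within their intervals, whereas the few reads of HHEX limit what its correlations can show. The cause of these shifts was not tested. No paired analysis was possible because no result comes from a test and the labels name no animals.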
